A study of Mus musculus with 4 samples.

Results

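The mitochondrial carrier family, whose genes carry the symbols Slc25a followed by a number, was followed on 4 arrays of RNA labelled as mouse heart. A gene was taken as a member when a probe set (the group of short probes that reads a transcript) carried exactly 1 gene symbol and that symbol began with Slc25a, and its brightest such probe set, by mean log2 intensity over the 4 arrays, stood for the gene. This rule used no comparison between groups and gave 44 members among 18193 genes represented the same way. The members were covered by 93 probe sets in all, and 23 of them had more than 1.

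Proteins of this family sit mostly in the inner mitochondrial membrane, where each carries a small set of metabolites between the matrix and the space outside. They share a fold built from repeated pairs of membrane-spanning helices and usually exchange one substrate for another. In heart muscle the best known are the adenine nucleotide carriers, which export ATP and import ADP, the phosphate carrier, the carriers of the malate-aspartate shuttle, which bring reducing equivalents into mitochondria, and the carnitine-acylcarnitine carrier, which brings in fatty acids for oxidation.

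The arrays compared 2 samples labelled Rhau KO, of genotype CAAG-ERT2-Cre;Rhau F/F, with 2 labelled Control, of genotype Rhau F/F. Rhau (Dhx36) encodes an RNA helicase that unwinds G-quadruplexes. All mice were adult C57BL/6J animals with floxed Rhau alleles, and both genotypes received tamoxifen, the drug that activates the Cre, in 5 doses at 2 months of age, with hearts taken 2 months later. The Control genotype lists no Cre, and the Cre used here is an inducible one, not the cardiomyocyte Cre (α-MHC-Cre) of other mice in the study. Nothing states whether arrays of a group came from separate animals, so that p-values measure the spread between these arrays only.

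Several checks went against the labels. Dhx36, the targeted gene, read 568 and 537 on the arrays labelled Rhau KO and 327 and 194 on Control replicates 1 and 2, and all 3 of its probe sets had the higher mean in Rhau KO. Esr1, the estrogen receptor gene from which the ERT2 part of such a Cre is made, read 5.40 and 25.5 in Rhau KO and 18036 and 19847 in Control on its brightest probe set. Its other 2 probe sets were high only on Control replicate 1, at 1936 against 74.0 to 107 and at 518 against 7.90 to 43.8. Directions below follow the labels as given, and an exchange of labels between the groups, which was not tested, would turn each of them. Of 12 cardiomyocyte markers, 11 were lowest in Control replicate 1, with a summed intensity of 134756 there and 469546 to 485537 on the other 3 arrays. A few bright markers carried that sum, and the median of the 12 was 212 there and 42479 to 44748 on the other 3. Tnni3 (cardiac troponin I) read 10.3 there and Myh6 (cardiac alpha myosin) 171. All 12 skeletal muscle markers were highest in Control replicate 1, with a summed intensity of 501569 against 48339 to 63924. The median of these 12 was 41257 there and 39.4 to 70.2 on the other 3. The array labelled Control replicate 1 was therefore low in transcripts that define heart muscle, and the main results below are given with and without it. Control replicate 2 had the highest summed intensity of 6 heat shock genes, 146813 against 32938 to 49685. Intensities were scaled alike on all arrays by the MAS 5.0 algorithm, so values in arbitrary units can be set side by side between arrays for 1 probe set, but not between probe sets. In such bulk samples, fewer cells of a type and less RNA per cell cannot be told apart.

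No member passed an adjusted p of 0.05 between Rhau KO and Control when all 4 arrays were compared with limma, beside 0% of all genes. No member passed a fold of 2 with an unadjusted p of 0.05 either, a rule that took 3.29% of all genes. Slc25a15 and Slc25a20 had an unadjusted p under 0.05, which is 4.55% of the members beside 4.31% of all genes. The small number of arrays limits what a test could find. For exact permutation of 2 and 2 arrays, the smallest two-sided p is 0.333, a floor that does not apply to limma. The methods' t-test on the same values, adjusted alike, also gave 0 members.

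The mean was higher in Rhau KO for 35 of the 44 members with the deposited scaling (79.5% of members beside 56.9% of all genes), but for 28 after quantile normalization and for 22 after centring each array on its median. The median log2 difference of the members was 0.13, beside 0.091 over all genes, and it was 0.094 after quantile normalization and 0.00448 after centring. Both Rhau KO arrays lay above both Control arrays for 12 members (27.3% beside 21.7% of all genes) and below both for 3 members (6.82% beside 14.6%). The groups overlapped for the other 29.

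Without Control replicate 1, again no member passed the adjusted threshold, which 0.819% of all genes did, and none passed a fold of 2 with an unadjusted p of 0.05, which 4.51% of genes did. At an unadjusted p under 0.05 there were 9 members, or 20.5% beside 13.3% of all genes. The mean was then higher in Rhau KO for 27 members (61.4% beside 52.8%), with a median log2 difference of 0.097 beside 0.030 over all genes. This comparison has a single Control array, and the test assumes that it varies as the other group does. The shares over all genes are not matched for brightness. A mean intensity under 100 was found for 7 of the 44 members and for 7376 of 18193 genes, and the part of brightness was not tested. Without Control replicate 2, by contrast, 10 members passed the adjusted threshold in limma, or 22.7% beside 22.5% of all genes, and in that comparison the single Control array was the one low in heart muscle transcripts.

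Control replicate 1 was the lowest or the highest of the 4 arrays for 31 members, 70.5% beside 70% of all genes. It lay more than 2-fold below the other 3 arrays for 6 members (13.6% beside 11.3%) and more than 2-fold above them for 1 (2.27% beside 6.05%). For 4 members, Slc25a13, Slc25a5, Slc25a34 and Slc25a25, it lay more than 4-fold outside the range of the other 3 (9.09% beside 5.96% of all genes). Control replicate 2 lay more than 2-fold outside the other 3 arrays for no member, beside 5.52% of all genes. Over the 37 members with a mean intensity of at least 100, the median absolute log2 difference was 0.16 between the Rhau KO arrays and 0.40 between the Control arrays, beside 0.16 and 0.54 over all genes of that brightness. Between Control replicate 2 and each Rhau KO array it was 0.24 and 0.23, beside 0.23 and 0.24 over those genes.

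**Figure D1:**
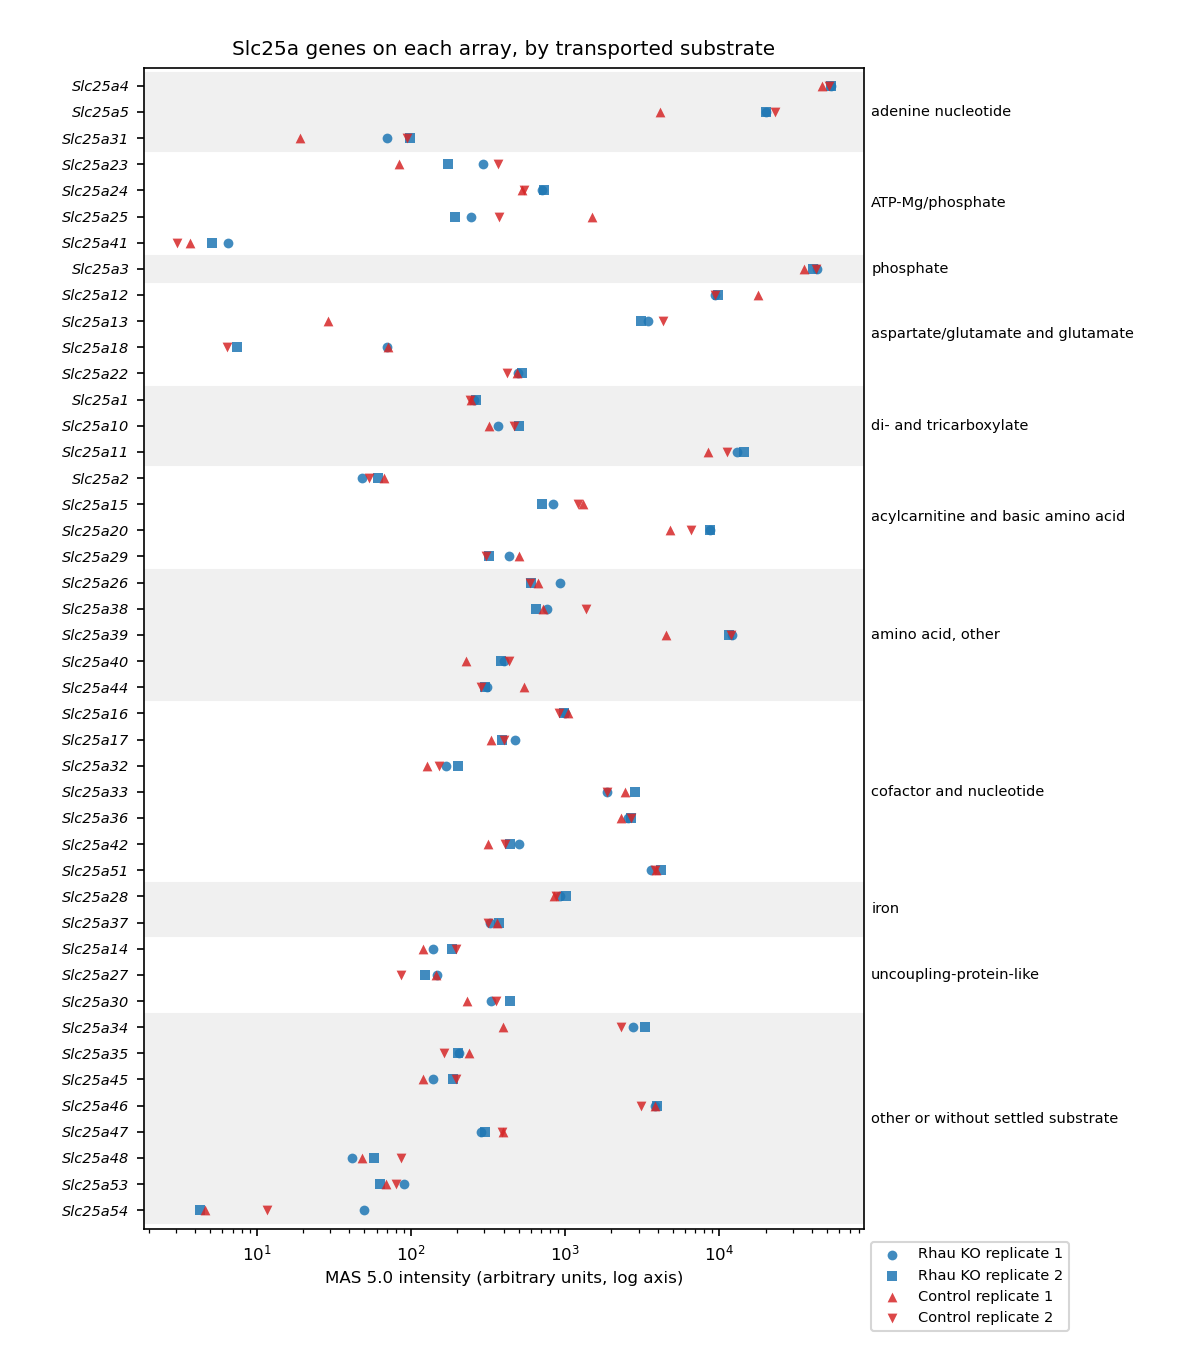
Intensity of each of the 44 Slc25a genes on each array, on a log axis in arbitrary units, with the genes grouped by the substrate of their carriers. Points of Control replicate 1 (upright triangles) stand more than 4-fold outside the others for Slc25a13, Slc25a5, Slc25a34 and Slc25a25. The spread of the 4 points varies among the remaining genes.

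The adenine nucleotide carriers differed from each other in how Control replicate 1 stood. Slc25a4 encodes ANT1, the main form of heart and skeletal muscle, and read 53128 and 53226 in Rhau KO and 46138 and 51596 in Control. On the log2 scale the groups differed by 0.12 with a standard error of 0.20, and by -0.0063 after centring each array on its median. All 4 arrays were close together on this probe set.

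Slc25a5, which encodes ANT2, the form of many dividing and non-muscle cells, read 20116 and 20021 in Rhau KO, with 4154 on Control replicate 1 and 22874 on Control replicate 2. The former was 4.82-fold below the lowest of the others. The log2 difference was 1.04 with a standard error of 0.84 (adjusted p = 0.873 in limma). Without Control replicate 1 it was -0.19, with a 95% interval of -0.40 to 0.025. All 8 probe sets of Slc25a5 were lowest in Control replicate 1, by log2 differences from the mean of the other 3 arrays of -1.85 to -2.48, although 6 of the 8 are of a design that can also read similar transcripts.

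The probe sets of Slc25a4 did not move together. On 1 of its 4 probe sets, Control replicate 1 read 37374 where the other 3 arrays read 12633, 13261 and 8459, so that the array that was lowest on the brightest probe set was the highest on that one. Slc25a31, which encodes the testis form ANT4, was dim (a mean intensity under 100) and read 70.1 and 99.0 in Rhau KO and 19.3 and 93.9 in Control. Its values stayed under 100 on every array.

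**Figure D2:**
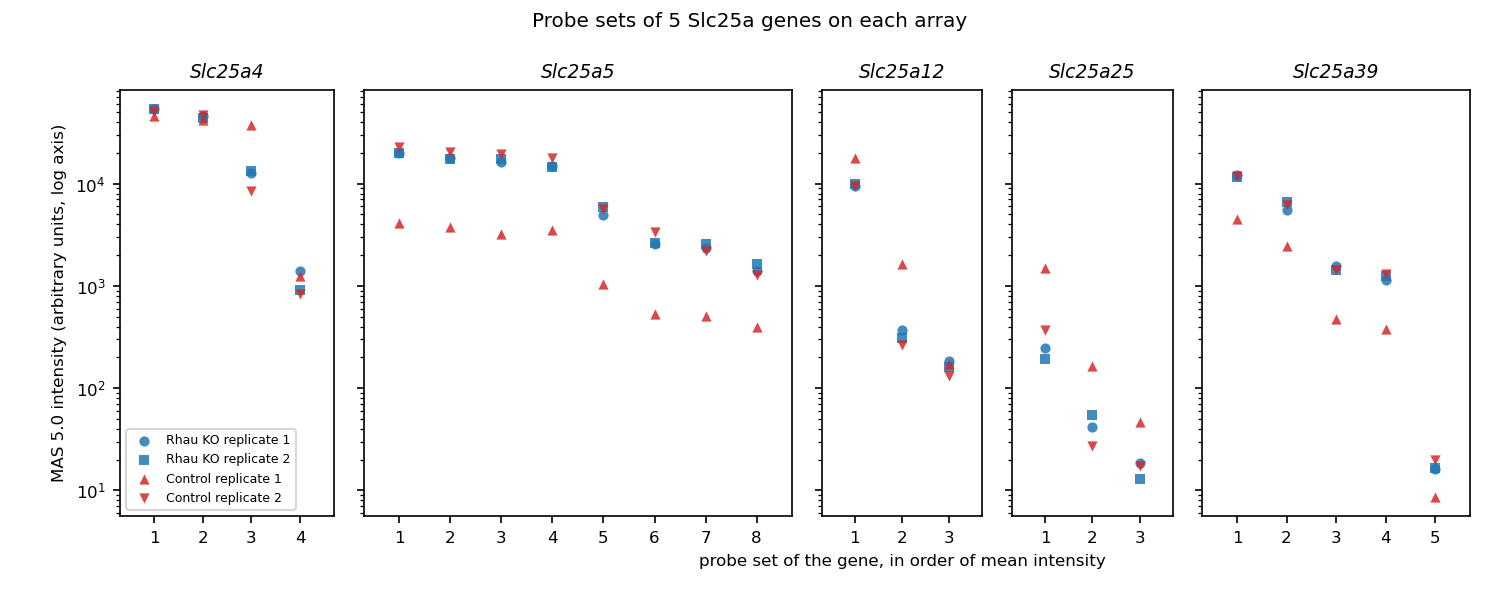
Intensity on each array of all probe sets of Slc25a4, Slc25a5, Slc25a12, Slc25a25 and Slc25a39, in arbitrary units on a log axis, ordered within a gene by mean intensity. Control replicate 1 lies below the other arrays on all 8 probe sets of Slc25a5 and all 5 of Slc25a39, and above them on all 3 of Slc25a25.

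The aspartate/glutamate carriers Slc25a12 (aralar) and Slc25a13 (citrin) carry out the same exchange in the malate-aspartate shuttle, and they differed in opposite directions in Control replicate 1. Slc25a13 read 3459 and 3129 in Rhau KO, with 29.1 on Control replicate 1 and 4294 on Control replicate 2. The value on the first Control array is under the dim limit of 100, so the gap is a bound. With that array taken at 100, it was at least 31.3-fold below the lowest of the others. With all arrays the log2 difference was 3.22 (2.69 with a pseudocount of 32), with a standard error of 2.40 and an adjusted p of 0.873 in limma. Without Control replicate 1 it turned to -0.38, with a 95% interval of -0.67 to -0.10 and an adjusted p of 0.249 in limma.

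Slc25a12 read 9447 and 9853 in Rhau KO, with 17796 on Control replicate 1 and 9449 on Control replicate 2. Here Control replicate 1 was 1.81-fold above the highest of the others, and the other 3 arrays lay close together. Its log2 difference was -0.43 with all arrays and 0.030 without Control replicate 1, with a 95% interval of -0.20 to 0.26. A second probe set of Slc25a12 showed the same order more widely, at 1617 in Control replicate 1 and 266 to 371 on the other arrays, while the third did not, at 174 against 131 to 184. The reading of Slc25a13 rests on a single probe set. On Control replicate 1 most cardiomyocyte markers were lowest, as Slc25a13 was. All skeletal muscle markers were highest there, as Slc25a12 was on its brightest probe set. The part of either set of markers in these values was not tested.

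Of the glutamate carriers, Slc25a22 read 493 and 523 in Rhau KO and 486 and 423 in Control. Slc25a18 was dim and split each group, at 69.7 and 7.44 in Rhau KO and 70.6 and 6.43 in Control.

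The stretches upstream of Slc25a12, Slc25a13 and Slc25a34 are shown because they belong to the shuttle pair and to another member with a wide gap in Control replicate 1, and because all of them have an entry in the promoter table used. Each line gives the 250 bases before the annotated start from RefSeq (GRCm38.p6), 5′ to 3′ on the gene's strand, with capitals marking a match on either strand to CCAAT (the CCAAT box), GGGCGG (a GC box) or AAGGTCA (a half-site of nuclear receptors).
Slc25a12, chr2:71367756-71368005, minus strand: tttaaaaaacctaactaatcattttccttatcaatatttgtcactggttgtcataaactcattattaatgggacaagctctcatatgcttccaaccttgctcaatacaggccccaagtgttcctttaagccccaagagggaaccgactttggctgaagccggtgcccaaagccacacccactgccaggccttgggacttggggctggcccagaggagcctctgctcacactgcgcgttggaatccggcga
Slc25a13, chr6:6217174-6217423, minus strand: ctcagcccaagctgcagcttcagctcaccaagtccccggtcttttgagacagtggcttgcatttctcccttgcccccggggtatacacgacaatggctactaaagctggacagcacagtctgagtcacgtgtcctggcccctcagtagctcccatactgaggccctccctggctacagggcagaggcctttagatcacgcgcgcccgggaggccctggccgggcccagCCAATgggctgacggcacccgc
Slc25a34, chr4:141623835-141624084, minus strand: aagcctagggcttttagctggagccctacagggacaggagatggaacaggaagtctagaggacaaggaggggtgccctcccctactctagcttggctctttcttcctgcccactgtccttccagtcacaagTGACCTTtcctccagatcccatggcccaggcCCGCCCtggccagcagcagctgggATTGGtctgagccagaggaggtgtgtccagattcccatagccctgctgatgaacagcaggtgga
The stretch of Slc25a12 held none of the motifs and was 49.6% G and C. That of Slc25a13 held CCAAT with its first base at position -22 from the start and was 62.8% G and C. That of Slc25a34 held CCAAT at -64, GGGCGG at -88 and AAGGTCA at -119. Among 32851 promoter entries of this length, 33.8% held CCAAT, 32.7% held GGGCGG and 4.08% held AAGGTCA. Of the 34 members with an entry, 17, 25 and 1 did. Members were counted as genes and the shares above as promoter entries, so the figures are not of the same unit. A match describes the letters only, and the arrays do not bear on binding.

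Slc25a3, the phosphate carrier that supplies ATP synthase, read 43068 and 40258 in Rhau KO and 35468 and 42253 in Control, so that the groups overlapped. Its log2 difference was 0.11 with all arrays, -0.025 after centring each array on its median and -0.021 without Control replicate 1.

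Slc25a20, the carnitine-acylcarnitine carrier, was the member with both Rhau KO arrays above both Control arrays and an unadjusted p under 0.05. It read 8737 and 8721 in Rhau KO and 4826 and 6600 in Control. Rhau KO was higher by a log2 value of 0.63 (standard error 0.24, unadjusted p = 0.0486 and adjusted p = 0.873 in limma). Without Control replicate 1 it was 0.40, with a 95% interval of 0.18 to 0.63 and an adjusted p of 0.16. Its second probe set kept the order, at 4578 and 5312 against 2374 and 3625.

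The ornithine carrier Slc25a15, named after its values were seen, lay the other way. It read 835 and 705 in Rhau KO and 1301 and 1205 in Control, with both Control arrays close together. On the log2 scale this was -0.71 (standard error 0.23, unadjusted p = 0.0309 and adjusted p = 0.873 in limma), and -0.65 without Control replicate 1, with a 95% interval of -1.08 to -0.23. A dim second probe set also had both Rhau KO arrays below both Control arrays. Of the others in this class, Slc25a29, a carrier of basic amino acids, overlapped between groups at 430 and 320 against 503 and 306, and the second ornithine carrier Slc25a2 was dim, at 48.4 to 66.7.

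Among carriers of di- and tricarboxylates, Slc25a11, the oxoglutarate/malate carrier that completes the malate-aspartate shuttle, read 12951 and 14443 in Rhau KO and 8473 and 11154 in Control. The groups did not overlap, and the log2 gap was 0.49 with all arrays (standard error 0.23, limma adjusted p = 0.873) and 0.29 without Control replicate 1. Slc25a1, the citrate carrier, read 258 and 265 against 245 and 241. These values are close together, and their log2 difference of 0.10 became -0.036 after quantile normalization and -0.026 after centring. Slc25a10, the dicarboxylate carrier, overlapped at 365 and 502 against 321 and 466 on its brightest probe set. On its second probe set, both Rhau KO arrays lay above both Control arrays, at 162 and 180 against 110 and 132.

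**Figure D3:**
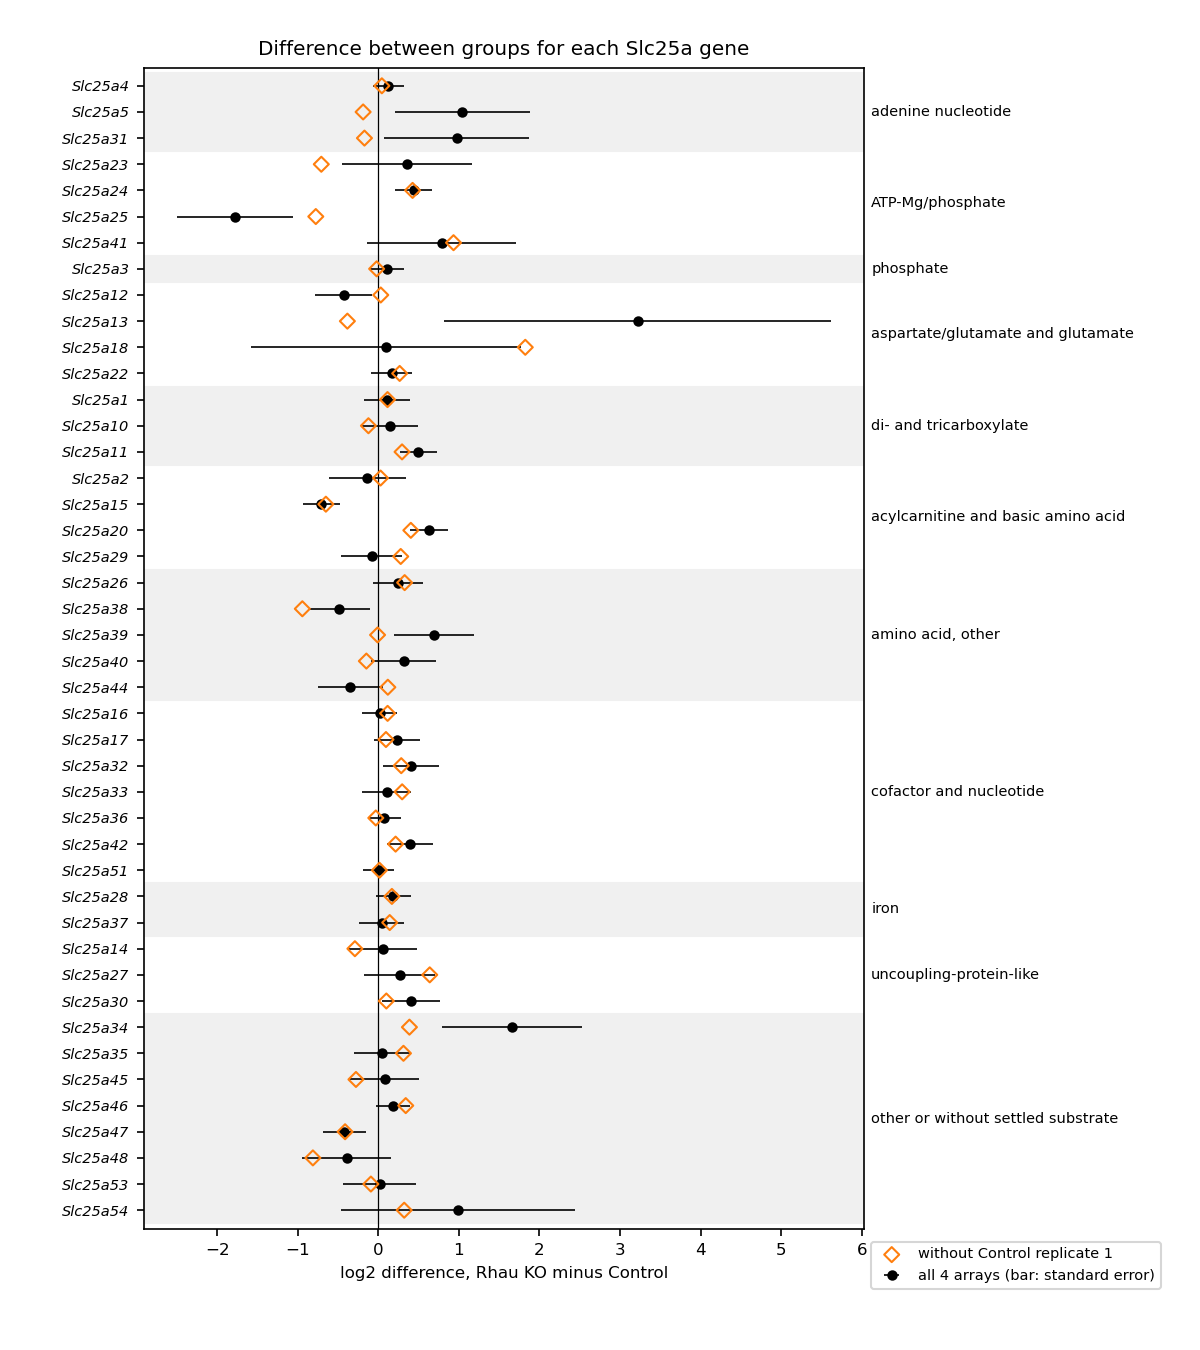
Log2 difference between Rhau KO and Control for each Slc25a gene with all 4 arrays (filled points, with bars of 1 standard error) and without Control replicate 1 (open diamonds). For Slc25a13 the value goes from 3.22 to -0.38 and for Slc25a5 from 1.04 to -0.19, while for Slc25a15, Slc25a20 and Slc25a24 both points lie on the same side of 0.

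The ATP-Mg/phosphate carriers set the size of the adenine nucleotide pool in the matrix, and most of them respond to calcium. Slc25a25, the member highest in Control replicate 1 relative to the rest, read 246 and 193 in Rhau KO, with 1503 on Control replicate 1 and 373 on Control replicate 2. Its value on the first Control array was 4.02-fold above the highest of the others, and that array was the highest on all 3 probe sets. Between groups the log2 difference was -1.78 (standard error 0.72, adjusted p = 0.873 in limma) with all arrays and -0.78 without Control replicate 1, with a 95% interval of -1.49 to -0.066. Both Rhau KO arrays lay below both Control arrays on the brightest probe set, but on neither of the other 2, where Control replicate 2 lay below or between them. Those other 2 probe sets were dim, so their order carries little weight either way.

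Slc25a23 read 292 and 173 in Rhau KO, with 84.0 on Control replicate 1 and 367 on Control replicate 2, so that the Control arrays held both the lowest and the highest value. Its log2 difference was 0.36 with all arrays and -0.71 without Control replicate 1. Slc25a24 was steadier within groups, at 711 and 734 in Rhau KO and 525 and 538 in Control. The log2 difference was 0.44 with all arrays and 0.42 without Control replicate 1, and the adjusted p in limma was 0.873 and 0.357. Its second, dim probe set did not show this order. Slc25a41 was dim at 3.03 to 6.54.

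**Figure D4:**
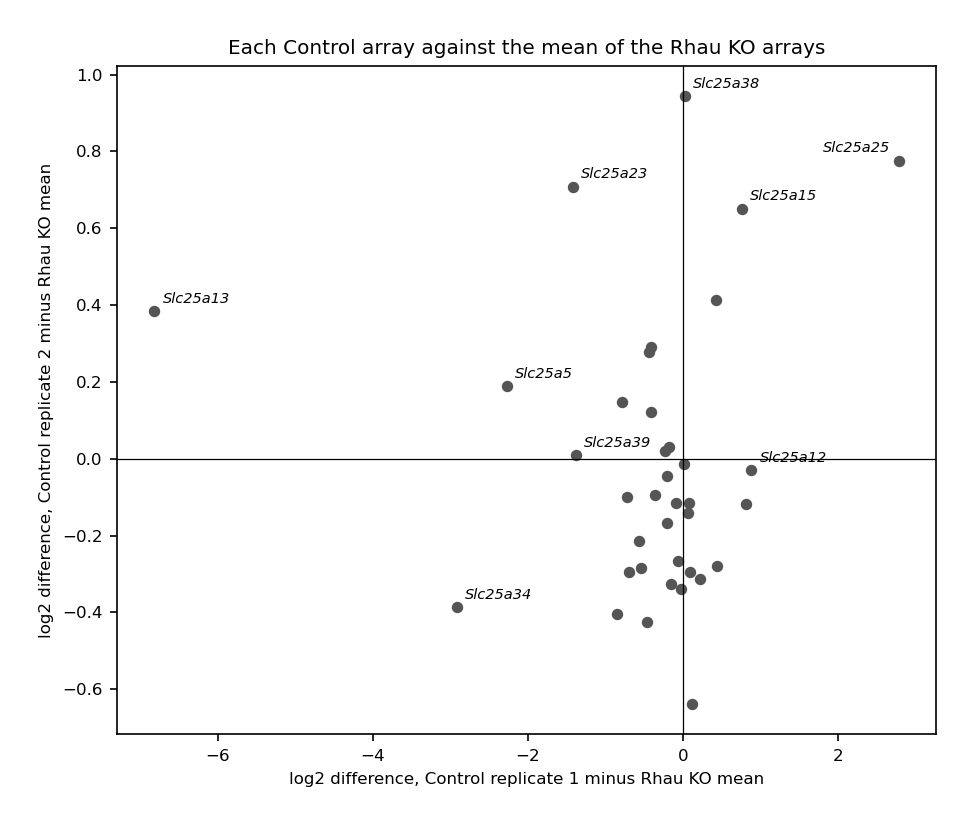
Log2 difference of each Control array from the mean of the Rhau KO arrays for the 37 Slc25a genes with a mean intensity of at least 100, Control replicate 1 on the horizontal axis and Control replicate 2 on the vertical axis. The horizontal axis spans from below -6 for Slc25a13 to above 2 for Slc25a25, and the vertical axis stays within 1 log2 unit.

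Iron carriers showed small differences. Slc25a28 (mitoferrin 2), the form of many tissues, read 934 and 1021 in Rhau KO and 846 and 869 in Control, a log2 difference of 0.19. Slc25a37 (mitoferrin 1), the form of red cell precursors, overlapped at 325 and 374 against 364 and 316. Its log2 difference of 0.040 was -0.070 after quantile normalization and -0.090 after centring.

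The carriers of glycine, glutathione and other amino acids were named after their values were seen. Slc25a39, a glutathione carrier, read 12145 and 11495 in Rhau KO, with 4525 on Control replicate 1 and 11894 on Control replicate 2. The value on the first Control array was 2.54-fold below the others, and all 5 probe sets were lowest there. The log2 difference went from 0.69 to -0.0096 without that array, with a 95% interval of -0.24 to 0.22. Its relative Slc25a40 read 400 and 387 against 229 and 436.

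Slc25a38, the glycine carrier that serves heme synthesis, was the member that stood out in Control replicate 2. It read 764 and 651 in Rhau KO and 716 and 1357 in Control. Without Control replicate 1 the log2 difference was -0.94 (standard error 0.17, unadjusted p = 0.00176 and adjusted p = 0.101 in limma), the lowest p of any member in that comparison. With all arrays it was -0.48, and the groups overlapped. The heat shock genes were high on the same array, and their part in this value was not tested. Slc25a44, a carrier of branched-chain amino acids, read 311 and 305 in Rhau KO, with 540 on Control replicate 1 and 284 on Control replicate 2. Of its 3 probe sets, 2 were highest in Control replicate 1 and the third was lowest there. Slc25a26, which imports S-adenosylmethionine, read 920 and 599 against 669 and 592.

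All 7 carriers of cofactors and nucleotides had the higher mean in Rhau KO with the deposited scaling, beside 56.9% of all genes. The count was 7 after quantile normalization, 3 after centring each array on its median and 6 without Control replicate 1. Their deposited-scale log2 differences were 0.00270 to 0.41 with all arrays, and none of the 7 passed an unadjusted p of 0.05 in limma. Slc25a42, which imports coenzyme A, read 501 and 441 in Rhau KO and 316 and 405 in Control, with a log2 difference of 0.39 with all arrays and 0.21 without Control replicate 1. Slc25a32, a carrier tied to folate and FAD, had both Rhau KO arrays above both Control arrays as well, at 170 and 203 against 128 and 153. This held on its brightest probe set only, and the groups overlapped on its others. The other 5 carriers of the class overlapped between groups on their brightest probe sets. Slc25a51, the NAD carrier, read 3627 and 4172 against 3913 and 3853, the smallest difference of the class. Slc25a33 and Slc25a36, pyrimidine nucleotide carriers, ranged from 1870 to 2835 and from 2301 to 2668. Slc25a16 ranged from 912 to 1046 and the peroxisomal carrier Slc25a17 from 333 to 472.

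The uncoupling-protein-like members Slc25a14, Slc25a27 and Slc25a30 overlapped between groups and ranged from 121 to 196, from 86.3 to 147 and from 231 to 437. Among members whose substrate is not settled or that do other work, Slc25a34 had the widest gap. It read 2745 and 3282 in Rhau KO, with 396 on Control replicate 1 and 2297 on Control replicate 2. The former was 5.80-fold below the others, and both Rhau KO arrays were above Control replicate 2 as well. Its log2 difference was 1.65 (standard error 0.87, adjusted p = 0.873 in limma) with all arrays and 0.39 without Control replicate 1, with a 95% interval of 0.031 to 0.74 and an adjusted p of 0.332.

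Slc25a46, an outer membrane protein that takes part in mitochondrial dynamics and was named after its values were seen, read 3856 and 3952 against 3823 and 3084. Slc25a47 read 284 and 304 in Rhau KO and 395 and 391 in Control, a log2 difference of -0.42 with all arrays and -0.41 without Control replicate 1, with 95% intervals that included 0. Slc25a35 ranged from 164 to 237 and Slc25a45 from 120 to 197, with overlapping groups. Slc25a48, Slc25a53 and Slc25a54 were dim, with no value above 90.3.

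Genes outside the family that work with these carriers were counted the same way. Of the carriers named otherwise, Mtch2, an insertase of the outer membrane, read 7152 to 7704 on all 4 arrays, while Ucp3, the uncoupling protein of skeletal muscle, read 702 and 983 in Rhau KO, with 2519 on Control replicate 1 and 905 on Control replicate 2. Of 12 genes of the import route of carriers, 6 were higher and 6 lower in Rhau KO (4 higher after median centring), none passed the adjusted threshold, and Timm8a1, a chaperone of the intermembrane space, was the single gene with an unadjusted p under 0.05, at 2089 and 1823 against 1159 and 1230. Of 14 genes of other mitochondrial transport, 7 were higher and 7 lower (6 higher after median centring), and none had an unadjusted p under 0.05. Over all genes, 56.9% had the higher mean in Rhau KO and 4.31% had an unadjusted p under 0.05 in limma.

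All 10 measured partners of named carriers had the higher mean in Rhau KO (beside 56.9% of all genes), 9 of them also after quantile normalization or median centring, with a median log2 difference of 0.45 with all arrays and 0.23 without Control replicate 1. Control replicate 1 was the lowest array for 9 of these 10, as it was for 40% of all genes. Cpt2, which acts just after Slc25a20 in fatty acid import, was the gene of this list past a fold of 2 with an unadjusted p of 0.05, which 3.29% of all genes passed. It read 8428 and 7755 in Rhau KO and 2458 and 5302 in Control, and the log2 gap was 1.16 (standard error 0.41, limma adjusted p = 0.873) with all arrays and 0.61 without Control replicate 1. Got1, the cytosolic aminotransferase of the malate-aspartate shuttle, read 21661 and 21214 against 13155 and 17680, so that both Rhau KO arrays lay above both Control arrays. Ppif, a regulator of the permeability pore, read 2638 and 2335 against 445 and 1723.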

How the data were processed

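RNA was hybridized to Affymetrix Mouse 430 2.0 arrays, and the intensities analysed here are the linear MAS 5.0 values that the authors deposited, scaled to a common trimmed mean on every array. Of 45101 probe sets, 64 controls were left out, 34945 carried 1 gene symbol, 932 several and 9160 none in the platform annotation. Groups came from the sample labels alone. Differences in log2 intensity (Rhau KO minus Control) were fitted for 18193 genes in R 4.3.3 by limma 3.58.1, using lmFit and a trended eBayes, with Benjamini-Hochberg adjustment over all genes at 0.05. The fold of 2 with an unadjusted p of 0.05 is the pair of thresholds that the study gives for its arrays. A gene was called dim below a mean intensity of 100. Detection calls and scan dates were not used here. Arrays give no read depth, and their number limits the precision.

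The members and gene lists were chosen with earlier results of these data known. Values on every array were to be given for members past either threshold or with Control replicate 1 over 4-fold outside the others, for the sets of related isoforms, and for Slc25a3, Slc25a20 and Slc25a42. Alternatives were quantile normalization, median centring, a pseudocount of 32, the 9097 brighter genes alone, averaging a gene's probe sets, a replicate block, the methods' t-test, and each array left out in turn. The code was tested on simulated data. No label states a pairing, so the replicate numbers were not taken as pairs. Deviations of same-numbered arrays correlated at 0.006 across genes. This value cannot decide the question, because the Control deviations hold the muscle transcript gap of Control replicate 1. Promoter motifs were searched on both strands. Tables and plots were made with Python 3.11.15, numpy 2.4.6, pandas 2.3.3 and matplotlib 3.10.9.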

Additional observations from a re-analysis of the deposited data

How the results depend on the processing

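No Slc25a member passed the adjusted threshold under any alternative with all 4 arrays, the methods' t-test included. With an array left out the count ran from 0 to 10, and the 10 came from leaving out Control replicate 2. The count past both the fold of 2 and the unadjusted threshold was 0 with all arrays, 1 with the mean of all probe sets (Slc25a15), 2 with a replicate block (Slc25a25 and Slc25a34) and 0 to 7 with an array left out, again 7 without Control replicate 2. The replicate block changed no other call. The share of all genes past both thresholds is given here only for the main comparison and without Control replicate 1. Counts past both thresholds under the other settings therefore cannot show whether the family differs from all genes. The count with a higher mean in Rhau KO was 35, 22 after median centring and 27 to 31 with an array left out. The median log2 difference was 0.13, 0.094 after quantile normalization, 0.00448 after median centring and 0.097 to 0.19 with an array left out.

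The brighter genes alone, the replicate block and the methods' t-test leave each log2 difference as it was, so no sign could change there. Of 160 values of the named members under all alternatives with all 4 arrays, those included, 153 kept their sign. The others were Slc25a1 (-0.036) and Slc25a37 (-0.070) after quantile normalization, Slc25a4 (-0.0063), Slc25a1 (-0.026), Slc25a37 (-0.090) and Slc25a3 (-0.025) after median centring, and Slc25a4 (-0.036) with the mean of all probe sets. With an array left out, 79 of 92 kept it. The ranges that crossed 0 were -0.19 to 2.27 for Slc25a5, -0.17 to 2.11 for Slc25a31, -0.88 to 0.030 for Slc25a12, -0.38 to 6.82 for Slc25a13, -0.12 to 0.41 for Slc25a10, -0.71 to 1.42 for Slc25a23, -0.021 to 0.23 for Slc25a3, -0.0096 to 1.38 for Slc25a39, -0.81 to 0.12 for Slc25a44 and -0.061 to 0.14 for Slc25a37. Leaving out Control replicate 1 reversed 9 of these 10. Slc25a23 also turned without Rhau KO replicate 1, Slc25a10 and Slc25a37 without Rhau KO replicate 2, and Slc25a37 without Control replicate 2. The cause was not tested. The number of arrays and the heart muscle transcripts that were low in Control replicate 1 limit every comparison.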
